A study of Mus musculus with 6 samples.

Results

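Mouse gene symbols made of Gm and a number name predicted loci. Those with 5-digit numbers beginning 36, 37, 38, 42 or 43 were chosen here by symbol alone, and 206 of the 2652 features in the deposited METTL3 RNA immunoprecipitation sequencing (METTL3-RIP-seq) table carried one. The rule used no measured value, but it was set with earlier results of these data known. Only features that the authors listed as higher in METTL3-RIP could become members. The table held 3 METTL3-RIP and 3 input libraries of sorted splenic natural killer (NK) cells from wild-type C57BL/6 mice, and per the study's methods mice were 6 to 10 weeks old. All groups shared one treatment, a hydrodynamic injection of the IL-15 plasmid pLIVE-IL-15, and cells were collected 1 month after it. The smaller portion of a lysate was kept as input, and the larger portion was incubated with an antibody to METTL3. Whether the 3 libraries of a group came from separate mice is not stated, nor whether animals were pooled, so that p-values measure the spread between libraries only. No mock immunoprecipitation was analysed here, and RNA that binds beads or antibody without METTL3 cannot be told apart from RNA bound by METTL3.

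Many loci of these number ranges belong to the GENCODE class TEC, which is kept for loci that still await experimental proof. Such entries are usually single stretches without introns that were annotated from transcript evidence with poly(A) features, and no product is known for them. METTL3 is the catalytic subunit of the nuclear complex that places N6-methyladenosine (m6A) on RNA, mostly within a short consensus of which GGACT is the best-known form. The complex acts in the nucleus, where unspliced precursor RNA, introns included, is within its reach.

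The label held for most members. GENCODE M21 had an entry for 202 of the 206, of which 157 were TEC, 19 sense intronic, 8 antisense, 5 processed pseudogenes, 5 protein-coding, 5 processed transcripts and 3 lincRNAs, and 4 members had no unambiguous entry. A single exon block made up 185 of the 202, and 17 had several blocks. The median exon length was 2564.5 nt. The shortest was Gm42883 with 222 nt and the longest Gm42715 with 12746 nt. The cell type could not be checked in the table, which listed 0 of 12 NK cell markers, 0 of 11 T cell, 0 of 9 B cell, 0 of 9 myeloid and 0 of 7 erythroid markers, and 1 of 5 platelet markers (Itga2b).

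Sequences of 8 loci without exon overlap are shown first. Of these, 7 are described below for their high level, read number or ratio or for lacking input reads, and Gm42930 is shown for its host gene Ptpn11. They were read from the GRCm38.p6 genome of RefSeq on the strand of the locus, 5′ to 3′, and capitals mark GGACT. The first pair are whole loci, both without a read in any input library. Gm37689 (TEC, chr4:6378018-6378292, plus strand) lies in an intron of Sdcbp, the gene of the scaffold protein syntenin, and Gm42883 (processed pseudogene, chr5:147439390-147439611, plus strand) lies in an intron of Pan3, a subunit of a poly(A)-shortening complex. Neither held GGACT.
Gm37689: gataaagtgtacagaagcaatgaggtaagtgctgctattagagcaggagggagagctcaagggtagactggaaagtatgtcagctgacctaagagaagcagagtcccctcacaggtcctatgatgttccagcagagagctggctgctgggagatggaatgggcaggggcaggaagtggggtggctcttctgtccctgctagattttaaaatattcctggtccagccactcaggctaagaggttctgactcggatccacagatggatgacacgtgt
Gm42883: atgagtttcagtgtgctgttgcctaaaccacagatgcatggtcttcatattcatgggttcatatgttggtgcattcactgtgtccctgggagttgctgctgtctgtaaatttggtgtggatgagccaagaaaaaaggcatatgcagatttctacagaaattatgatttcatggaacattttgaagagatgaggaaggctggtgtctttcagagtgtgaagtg
The other 6 are windows of 150 bases, chosen in each locus for the most copies of GGACT. They are from Gm37474 in Fli1 (chr9:32525909-32526058, minus strand), Gm37033 in Itpkb (chr1:180359072-180359221, plus strand), Gm37589 in Mbnl1 (chr3:60536771-60536920, plus strand), Gm43813 in Mlxip (chr5:123407882-123408031, plus strand), Gm37352 outside protein-coding genes (chr8:84201908-84202057, plus strand) and Gm42930 in Ptpn11 (chr5:121184224-121184373, minus strand).
Gm37474: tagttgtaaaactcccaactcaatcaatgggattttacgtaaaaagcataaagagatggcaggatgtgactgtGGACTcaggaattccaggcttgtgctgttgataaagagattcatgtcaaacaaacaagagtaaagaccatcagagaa
Gm37033: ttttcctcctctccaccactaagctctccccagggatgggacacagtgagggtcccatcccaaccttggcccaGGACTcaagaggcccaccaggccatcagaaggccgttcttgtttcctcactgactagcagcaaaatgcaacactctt
Gm37589: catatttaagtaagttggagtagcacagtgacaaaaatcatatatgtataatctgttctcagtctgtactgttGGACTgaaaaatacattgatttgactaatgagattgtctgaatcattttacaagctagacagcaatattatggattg
Gm43813: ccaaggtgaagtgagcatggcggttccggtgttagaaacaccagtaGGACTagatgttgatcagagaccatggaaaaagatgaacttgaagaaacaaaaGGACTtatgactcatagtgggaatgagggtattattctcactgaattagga
Gm37352: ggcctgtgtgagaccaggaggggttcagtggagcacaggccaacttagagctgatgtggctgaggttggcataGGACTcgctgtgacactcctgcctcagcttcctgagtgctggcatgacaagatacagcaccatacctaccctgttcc
Gm42930: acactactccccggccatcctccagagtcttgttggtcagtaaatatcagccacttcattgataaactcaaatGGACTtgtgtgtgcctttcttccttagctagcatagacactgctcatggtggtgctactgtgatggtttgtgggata
The window of Gm43813 held 2 copies and the other windows 1 copy each. The whole loci held 1 copy in Gm37474, 4 in Gm37033, 3 in Gm37589, 6 in Gm43813, 3 in Gm37352 and 3 in Gm42930.

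Per window, GGACT was about as frequent in listed loci as in loci of the same ranges that were not listed. When the single-block loci were cut into windows of 150 bases from their 5′ ends, 10.9% of 3275 windows of listed loci and 10.9% of 22155 windows of unlisted loci held GGACT, and its complement AGTCC was in 10.7% and 10.8%. Of loci of at least 1000 nt, 48.3% of 178 listed and 58.5% of 1493 unlisted ones had GGACT in their first 1000 nt. For same-strand intronic loci alone the shares were 50.4% of 129 and 52.4% of 593. A larger share of whole single-block loci held the motif among the listed (76.2% of 185) than the unlisted (59.0% of 2070), and the listed loci were also longer, with a median of 2564.5 nt against 1101.5 nt. Letters in a window are a description and do not show that a site is methylated.

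Values were reads per kilobase of exon per megaread (RPKM), a level per length. All 206 members were higher in METTL3-RIP than in input by limma on log2(RPKM + 1), with Benjamini-Hochberg adjustment over the 2652 features and a threshold of 0.05, a direction that turned for the median of the members when each library was centred on its median. The background was 2650 of 2652 features, or 99.9%, because the authors listed only features higher in METTL3-RIP, so the count of members says nothing particular about them. Values of the groups did not overlap for 205 of the 206, beside 99.8% of the table. The same choice bears on each single locus. Adjusted p and separation from input are therefore given below as description, not as support for binding by METTL3. The median difference on the log2(RPKM + 1) scale was 1.15 for the members and 1.72 for all features, and member differences ranged from 0.30 to 4.19. Centring moved the median of all features from 1.72 to -0.04, with 30 members then higher and 137 lower.

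The members were at low levels, and the sizes on this scale follow the level. Their median RPKM was 1.41, 1.31 and 1.17 in METTL3-RIP libraries 1, 2 and 3, and 0.0379, 0.0396 and 0.0395 in the input libraries. Only 24 members averaged at least 5 RPKM in METTL3-RIP, 9 averaged at least 10, and 82 were under 1. Reads recovered from the RPKM steps give the depth. Members took 15551, 15677 and 17734 reads of 9401509, 9613292 and 11809744 in the METTL3-RIP libraries, and 1294, 1344 and 1233 reads of 15227208, 15992386 and 14710607 in the input libraries. That was 0.150% to 0.165% of a METTL3-RIP library and 0.00838% to 0.00850% of an input library. The largest share was held by the multi-exon members Gm42715 and Gm38394, with 38.8% of all member reads in METTL3-RIP and 44.0% in input.

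**Figure D1:**
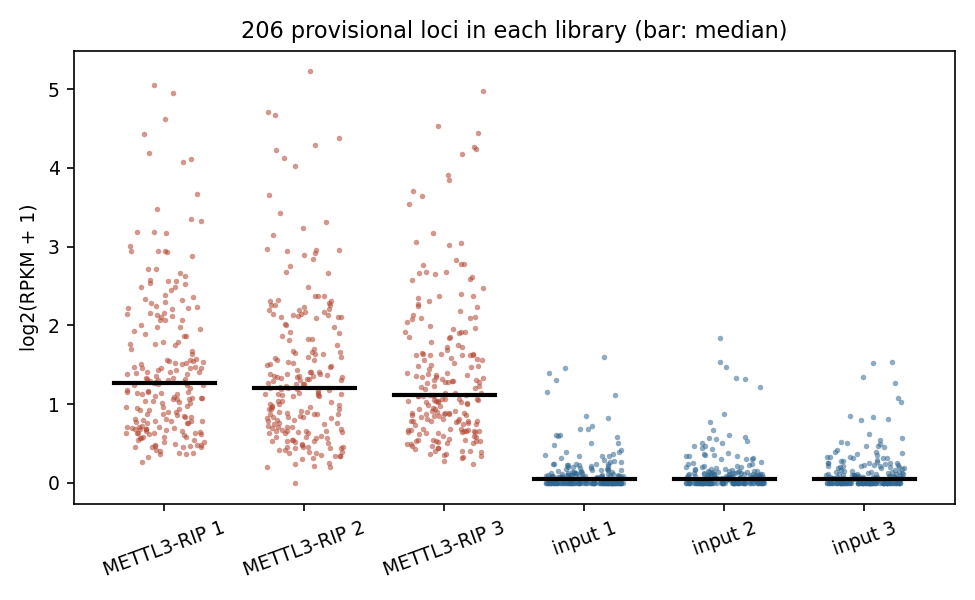
Level of each of the 206 loci as log2(RPKM + 1) in the 3 METTL3-RIP and 3 input libraries, 1 point a locus, with the median as a bar. Medians were 1.27, 1.21 and 1.12 in METTL3-RIP and 0.05 to 0.06 in input, and 76 to 89 loci sat at 0 in each input library.

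A typical member rested on few reads. The median was 91.5 reads summed over the 3 METTL3-RIP libraries and 6 over the 3 input libraries, against 360 and 38 for all features. In input, 71 members had reads in all 3 libraries, and 39 (18.9%) had none in any, beside 5.15% of the other features. The 339 listed Gm symbols outside the number ranges were similar, with medians of 99 and 6 reads and 47 loci without any input read. Most counts above 0 were even numbers, 83.2% to 85.0% of the member values in the input libraries and 67.0% to 69.2% in METTL3-RIP, as when both mates of a pair are counted. A count of 2 in input may therefore stand for 1 fragment. For loci without input reads a floor of 3 read pairs (6 reads) per input library was used to bound the ratio of METTL3-RIP to input from below. The coefficient of variation between METTL3-RIP libraries had a median of 22.7% for members and 15.5% for all features.

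For the 71 members with reads in all input libraries, METTL3-RIP over input in mean RPKM had a median of 16.2 and ran from 9.26 to 52.6, while 1997 features of the table with such reads had a median of 12.9. No listed feature with input reads had a ratio under 9.14, so the lower end of the range is that of the listing. No test of the difference between these medians was made. The sets also differed in depth, with a median of 15 input reads for the 71 members and 74 for the 1997 features. The other listed predicted loci, 339 Gm symbols outside the number ranges, had higher levels, with a median METTL3-RIP level of 3.20 RPKM against 1.33 for members, and 120 symbols ending in Rik had 1.93. All 339 and all 120 passed the threshold, and their median differences on the log2(RPKM + 1) scale were 1.82 and 1.37. Over loci with any input reads, the median ratio was 21.5 for 167 members, 20.1 for 292 of the 339 and 17.9 for 112 of the 120. Of 24 well-known long noncoding RNAs, 3 were listed (Firre, Kcnq1ot1 and Mir17hg), and their mean METTL3-RIP levels lay between 0.126 and 0.528 RPKM, among the lower members or below them.

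The share of loci that were listed differed by position. GENCODE M21 held 3078 loci of the number ranges, and 202 (6.56%) were in the table. Of 882 loci that lay in an intron of a protein-coding gene on its strand, clear of any other exon, 141 were listed (15.99%). On the other strand of an intron, 6 of 231 were listed (2.60%). Outside protein-coding genes 12 of 1539 were listed (0.780%). Loci whose exons overlapped another gene's exon were listed in 15 of 102 cases on the same strand (14.7%) and in 28 of 324 on the other strand only (8.64%). Within class TEC the shares were 115 of 746 (15.4%) for same-strand introns, 5 of 91 (5.49%) for other-strand introns and 10 of 563 (1.78%) outside protein-coding genes, in the order of all classes. For exon overlaps in TEC they were 6 of 37 on the same strand (16.2%), above same-strand introns, and 21 of 150 on the other strand only (14.0%). These are shares of one annotated set and carry no test. An unlisted locus may have had no RNA in these cells, too few reads, or RNA that was not higher in METTL3-RIP. These cases cannot be told apart here, so the shares do not measure a preference of METTL3 for a position.

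**Figure D2:**
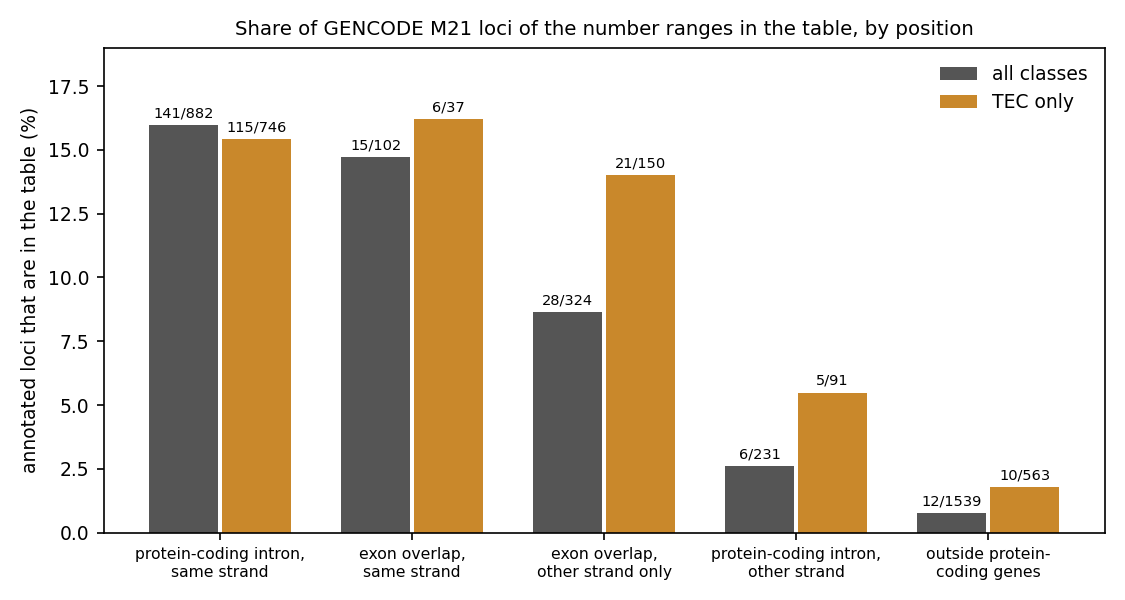
Share, in percent, of GENCODE M21 loci of the number ranges that were in the table, by position relative to other genes, for all classes and for TEC alone, with listed and annotated numbers above each bar. Same-strand introns reach 15.99% and loci outside protein-coding genes 0.780%.

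The order of same-strand introns, other-strand introns and positions outside protein-coding genes was the same in TEC loci of 1000 nt or more when they were split by length. Among TEC loci of at least 3000 nt, 41 of 170 in same-strand introns were listed (24.1%), 2 of 22 in other-strand introns (9.09%) and 4 of 106 outside protein-coding genes (3.77%). Among those of 1000 to 1999 nt the numbers were 30 of 216 (13.9%), 1 of 22 (4.55%) and 0 of 125. From 2000 to 2999 nt they were 36 of 262 (13.7%), 2 of 18 (11.1%) and 6 of 128 (4.69%), so the shares in introns of either strand were close there. The other-strand shares rested on 1 or 2 listed loci in each length group. Listed same-strand intronic loci lay in shorter host genes, with a median span of 120658 bases against 231414 for the unlisted, and closer to the 5′ end, with their midpoints at a median of 36.9% of the host's length against 44.2%. Of the listed loci 17.8% held a run of at least 12 A and 24.3% a run of at least 12 T, beside 6.502% and 9.01% of the unlisted. In TEC alone the shares were 17.8% and 27.4% against 9.44% and 13.9%. Listed loci were longer, and per 100 kb of sequence there were 7.24 A runs and 9.95 T runs in listed loci against 4.62 and 6.82 in unlisted loci, and 6.57 and 10.4 against 4.98 and 7.87 in TEC alone.

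The 141 same-strand intronic members lay in 105 host genes, and 24 of these hosts (22.9%) were listed themselves. A listed host was present for 36 of the 141 loci (25.5%) and for 121 of 741 unlisted intronic loci (16.3%). Most intronic members thus lay in genes that were not in the table. The levels of members were close for both kinds of host, with a median of 1.24 RPKM in METTL3-RIP for the 36 and 1.06 RPKM for the 105.

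The intronic locus with the highest level lay in Fli1, an ETS-family transcription factor of blood cells. Gm37474 (TEC, chr9:32525145-32526958, minus strand, 1814 nt) had 23.5, 25.1 and 20.7 RPKM in METTL3-RIP and 0.109, 0.483 and 0.749 RPKM in input. Every METTL3-RIP library was far above every input library, and the ratio of the means was 51.7. The input values differed widely, and the ratio was 78.1 without input library 3 and 37.5 without input library 1. The difference on the log2(RPKM + 1) scale was 4.08 (SE 0.17, adjusted p = 1.58e-07 by limma). Fli1 held a further 3 members, all on its strand. Their mean METTL3-RIP levels were 3.90 RPKM for Gm38346, 3.57 RPKM for Gm37082 and 0.998 RPKM for Gm38292. Gm38346 shares 3.33% of its length with an exon of Gm27201 on the other strand. Fli1 itself was not listed, so its 4 loci stood in the table without their host.

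Gm37689 in Sdcbp, shown whole above, had the largest difference of all members. Its level was 16.2, 17.8 and 17.9 RPKM in METTL3-RIP, and all 3 input libraries were at 0. On 147 reads in METTL3-RIP, the ratio was at least 12.1 against the floor, and the difference was 4.19 on the log2(RPKM + 1) scale (SE 0.09, adjusted p = 1.03e-07 by limma). In a locus of 275 nt, few reads make a high RPKM. Of the other loci without input reads the highest was Gm42883 in Pan3, with 6.71, 8.43 and 5.34 RPKM in METTL3-RIP on 46 reads and a ratio of at least 3.86. Gm37666 in Cers6, a ceramide synthase gene, followed with 4.91, 3.48 and 3.32 RPKM on 103 reads and a ratio of at least 8.62. For all 39 loci of this kind the bounds ran from 1.77 to 12.1, with a median of 3.38.

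Several members with ratios over 40 had reads in all input libraries, though few of them. Itpkb, an inositol trisphosphate kinase that restrains receptor signalling in lymphocytes, held 3 members in its introns. Gm37033 (TEC, chr1:180357649-180364998, plus strand) had 3.86, 4.16 and 3.97 RPKM in METTL3-RIP and 0.0447, 0.102 and 0.129 RPKM in input, a ratio of 43.4 on 906 and 31 reads. Its difference was 2.20 on the log2(RPKM + 1) scale (SE 0.08, adjusted p = 1.41e-07 by limma), and the SD of the METTL3-RIP libraries was 0.150 RPKM (n = 3). Itpkb as a gene was at 15.9 RPKM in METTL3-RIP and 0.768 RPKM in input, a ratio of 20.7. Gm37390 had 3.66, 7.87 and 5.15 RPKM and Gm36933 had 1.70, 2.03 and 2.32 RPKM in the METTL3-RIP libraries, above all input values in both cases.

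Dock10 held Gm38062 (TEC, chr1:80728809-80730664, minus strand). This locus had 7.05, 6.84 and 7.35 RPKM in METTL3-RIP and 0.0708, 0.236 and 0.183 RPKM in input, a ratio of 43.4 beside 10.9 for Dock10. Gm43813 in Mlxip, a glucose-responsive transcription factor gene, is annotated as a processed transcript (chr5:123406487-123411864, plus strand). It had 3.20, 3.33 and 3.23 RPKM in METTL3-RIP and 0.0611, 0.0233 and 0.101 RPKM in input, and its ratio of 52.6 was the highest among the 71 members with reads in all input libraries. This ratio rested on 15 input reads and was 40.1 without input library 2 and 77.2 without input library 3, so its rank is uncertain. Gm43336 in Coro1c, a coronin of the actin cytoskeleton, had 2.39, 1.80 and 1.96 RPKM in METTL3-RIP and a ratio of 42.6 on 10 input reads. In all 3 loci the METTL3-RIP libraries were close to each other. They were also clear of the input libraries, as for 99.8% of all features, with adjusted p of 1.37e-07, 1.46e-07 and 7.20e-07 by limma.

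Other intronic members stood at the lower end of the ratios. Gm36940 (TEC, chr9:56414031-56416066, minus strand) lies near the start of Peak1, a pseudokinase gene of the cytoskeleton, at 1.39% of its length. It had 10.2, 8.94 and 10.7 RPKM in METTL3-RIP and 0.516, 1.505 and 1.04 RPKM in input, and its ratio of 9.76 lay below the 10.8 of Peak1. Without input library 2 the ratio was 12.8, above that of Peak1, and without input library 1 it was 7.83. Gm37053 in Bcl2, the gene of an anti-apoptotic protein, had 1.63, 1.94 and 1.62 RPKM in METTL3-RIP and 0.157, 0.180 and 0.195 RPKM in input, a ratio of 9.76. The lowest ratio of any member, 9.26, was that of Gm42724, which had no entry in GENCODE M21. Gm43064, a multi-exon protein-coding entry that overlaps Ap4b1 and Bcl2l15, had 9.54. All 4 passed the threshold, with adjusted p from 1.37e-06 to 2.93e-05 by limma.

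**Figure D3:**
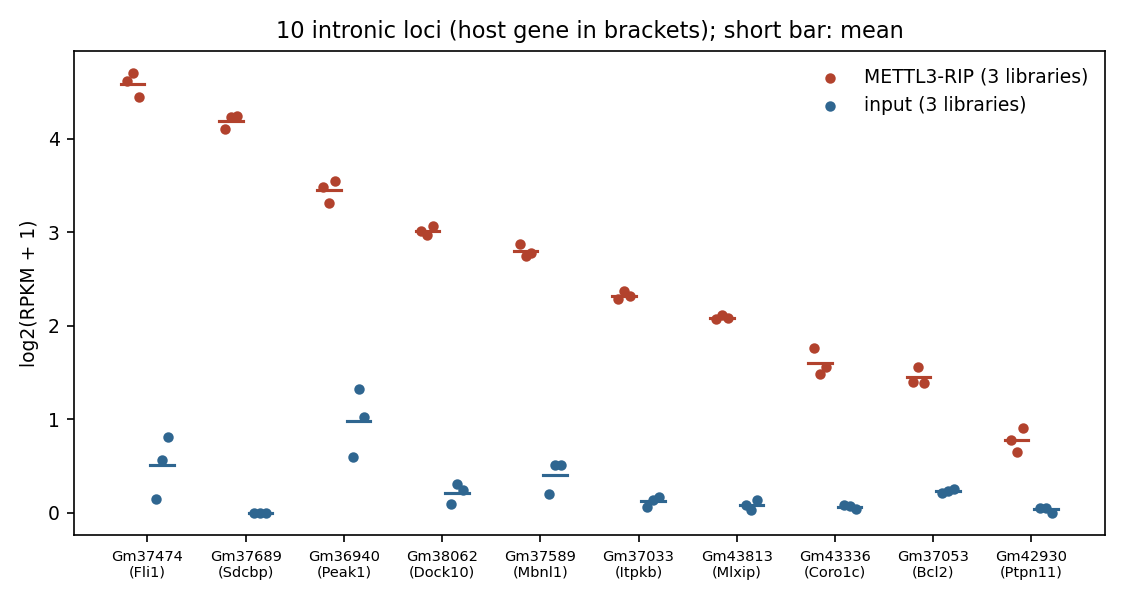
Level as log2(RPKM + 1) of 10 same-strand intronic loci, with the host gene in brackets, in 3 METTL3-RIP and 3 input libraries, 1 point a library and a short bar at the mean. In each locus all METTL3-RIP points are above all input points, from Gm37474 with a mean of 23.1 RPKM in METTL3-RIP to Gm42930 with 0.725 RPKM.

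RNA-binding and transcription genes were hosts as well. Gm37589 (TEC, chr3:60535751-60539744, plus strand) lies in Mbnl1, a regulator of alternative splicing. It had 6.34, 5.73 and 5.85 RPKM in METTL3-RIP and 0.148, 0.423 and 0.426 RPKM in input, a ratio of 17.99 with adjusted p = 2.18e-07 by limma. Gm37488, in the same gene, had a mean of 3.18 RPKM in METTL3-RIP. Regulators of lymphocyte genes held members at lower levels, which were named after their values were seen. Their METTL3-RIP means were 3.91 RPKM for Gm37248 in Satb1, 1.72 RPKM for Gm38034 in Foxo1, 1.66 RPKM for Gm42449 in Lef1, 1.63 RPKM for Gm43982 in Etv6 and 1.52 RPKM for Gm43430 in Nfkb1. Input means of these 5 loci were between 0.0219 and 0.236 RPKM.

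Genes of immune receptor signalling held members chosen in the same way. Gm43065, a sense intronic entry in the phosphatase gene Ptpn22, had 5.59, 6.46 and 5.42 RPKM in METTL3-RIP and 0.314, 0.359 and 0.455 RPKM in input. Gm36932 in Prkcq, a protein kinase C gene, had a mean of 4.39 RPKM in METTL3-RIP and 0.330 RPKM in input. Gm37469 is antisense within an intron of Cd247, the gene of a signalling chain shared by the T cell receptor and NK cell receptors, and had 2.51 RPKM and 0.117 RPKM. Gm42930 lies in Ptpn11 (chr5:121181737-121184996, minus strand), the gene of the phosphatase SHP-2. It had 0.718, 0.574 and 0.883 RPKM in METTL3-RIP and 0.0403, 0.0384 and 0 RPKM in input, on 74 and 4 reads. Ptpn11 as a gene was at 13.4 RPKM in METTL3-RIP and 1.41 RPKM in input, so the intronic locus stood at 5.39% of the level of its host in METTL3-RIP.

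Some hosts held several members. There were 11 genes with 3 or more, counting members on either strand. These were Cdk14, Cers6, Fli1, Med13l and Ncoa2 with 4 each and Dis3l2, Itpkb, Rap1a, Tcf12, Tshz3 and Usp33 with 3 each. Itpkb, Med13l, Ncoa2 and Usp33 were listed themselves. The 4 members in Ncoa2, a nuclear receptor coactivator, had METTL3-RIP means between 1.11 and 1.76 RPKM, a narrow range. Among the 5 genes with 4 members the range in Fli1 was the widest, from 0.998 to 23.1 RPKM. In Dis3l2, a 3′ exonuclease gene, the 3 members had 214 reads in METTL3-RIP and 0 in input. In Rap1a, a small GTPase gene, Gm43328 reached 4.39 RPKM and the other 2 members 1.21 and 1.52 RPKM. In Tshz3 and Tcf12, both transcription factor genes, the means were 0.605 to 2.79 RPKM and 0.416 to 0.804 RPKM. In Cdk14, a cyclin-dependent kinase gene, they were 0.418 to 1.05 RPKM on 187 reads in METTL3-RIP and 8 in input. In Cers6 they were 0.391 to 3.91 RPKM. Of the 3 members in Usp33, a deubiquitinase gene, Gm43858 was on its strand, and Gm42967 and Gm43859 overlapped its exons from the other strand. Whether the loci of one host are read from one transcript was not tested, and they are not counted as independent here.

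**Figure D4:**
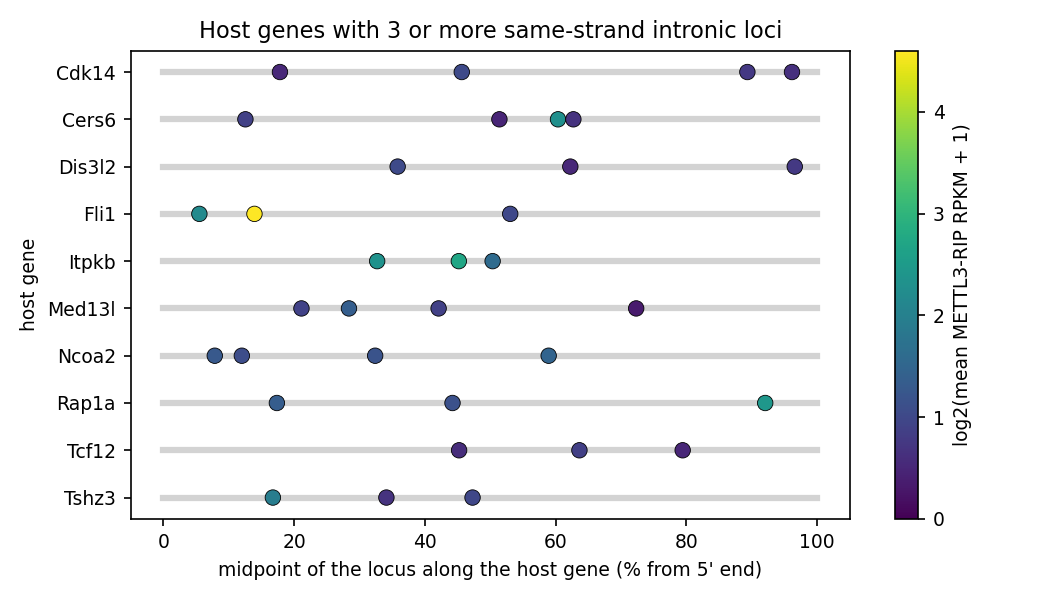
Midpoint of each same-strand intronic member along its host gene, in percent of the host's length from the 5′ end, for the 10 hosts with 3 or more such members, coloured by log2(mean METTL3-RIP RPKM + 1). The member with the highest level, Gm37474 in Fli1, lies at 13.9% of the host.

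Med13l, a subunit of the Mediator kinase module, held the member with the weakest support. Gm43051 had 0.397, 0 and 0.379 RPKM in METTL3-RIP on 22 reads and no input reads, and its METTL3-RIP values overlapped the input values through library 2. It was the only such member of the 206. Its difference was 0.32 on the log2(RPKM + 1) scale (SE 0.12, adjusted p = 0.0339 by limma), and this call was lost without METTL3-RIP library 1 (adjusted p = 0.110), without METTL3-RIP library 3 (adjusted p = 0.118) and without any of the input libraries (adjusted p from 0.0718 to 0.0759). Leaving out METTL3-RIP library 2 gave an adjusted p of 1.5e-05 by limma. The other smallest differences were 0.30 for Gm37621, 0.37 for Gm43571, 0.37 for Gm38372, 0.38 for Gm43466 and 0.39 for Gm36936, on 26 to 52 reads in METTL3-RIP each. Their METTL3-RIP values were above their input values in all libraries.

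The listed hosts allowed each intronic locus to be set beside the gene around it. In the 36 pairs of locus and same-strand host, the locus was below the host in METTL3-RIP in 35 and in input in 36. The locus stood at a median of 14.8% of the host's level in METTL3-RIP and 5.51% in input. The exception in METTL3-RIP was Gm38257 in Arl5b, with 1.99 RPKM against 1.95 RPKM. Summed over all 36 loci, the level was 26.2, 24.4 and 28.4 per 100 of the summed level of the 24 hosts in METTL3-RIP libraries 1, 2 and 3, and 9.58, 18.01 and 15.1 per 100 in the input libraries. The METTL3-RIP libraries were above the input libraries in this respect without overlap. A single locus, Gm36940, weighed most on the input sums. It held 0.516, 1.505 and 1.04 RPKM of summed locus levels of 1.97, 3.52 and 2.67 RPKM in input. In METTL3-RIP it held 10.2, 8.94 and 10.7 RPKM of 65.2, 65.9 and 68.6 RPKM. The locus had a higher ratio of METTL3-RIP to input than its host in 27 of 32 pairs with any locus reads in input, and in 7 of the 10 with locus reads in all input libraries. In those 10 pairs the median ratio was 19.1 for loci and 13.8 for hosts. Loci and hosts in these pairs were all listed and had passed the authors' choice, and 22 of the 32 locus ratios rested on input reads in 1 or 2 libraries only. An effect of this choice on values from few input reads cannot be told apart from a difference between loci and hosts. It was not tested, and no conclusion about loci against hosts is drawn from the ratios or summed levels. Host levels include the exons that make up most of a spliced transcript, and the strand used in counting is not stated.

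**Figure D5:**
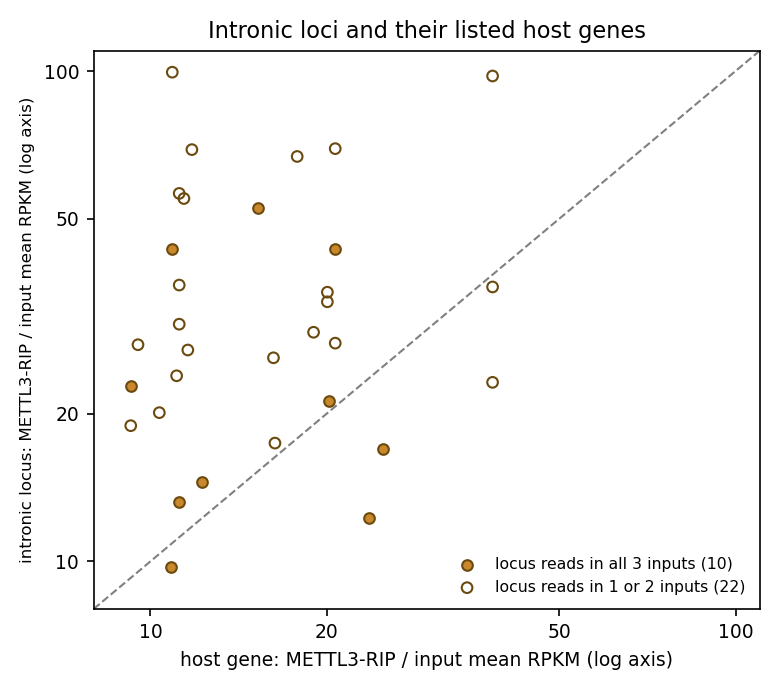
Ratio of METTL3-RIP to input in mean RPKM of 32 intronic loci (vertical) against that of their listed host genes (horizontal), both on log axes, with the line of equal ratios. Filled points are the 10 loci with reads in all 3 input libraries, of which 7 lie above the line.

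Several members with high levels overlapped known exons. Gm42715 (chr7:127519584-127567054, plus strand, 31 exon blocks), a protein-coding entry that runs through Srcap and Tmem265, had 32.2, 36.4 and 30.6 RPKM in METTL3-RIP and 2.04, 1.77 and 1.55 RPKM in input. Srcap, a chromatin remodelling ATPase gene, was at 27.9 and 1.53 RPKM, and 76.4% of the exon bases of Gm42715 were shared with an exon of a neighbour on its strand. Gm38394 (17 blocks), which overlaps Zc3h11a and Zbed6, had 20.5, 19.8 and 18.3 RPKM in METTL3-RIP and 1.48, 1.34 and 1.41 RPKM in input. Its largest overlap with a single gene on its strand was 49.3% of its exon bases. Gm43634, a lincRNA entry with 98.4% of its bases in exons of Cracr2a, a calcium channel regulator gene, had 17.2, 18.5 and 11.5 RPKM in METTL3-RIP. How the authors assigned reads in shared exons is not stated, so the values of these 3 members are uncertain and cannot be told apart from their neighbours. Their differences were 3.61, 3.09 and 3.02 on the log2(RPKM + 1) scale.

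Other members faced the exons of genes on the other strand. Gm43126 (chr6:127122966-127126155, plus strand) shares 86.7% of its exon bases with the other strand of Ccnd2, the cyclin D2 gene, and had 15.9, 11.6 and 14.0 RPKM in METTL3-RIP and 1.22, 1.89 and 0.792 RPKM in input. Gm37270, which lies wholly within Nipal3 exons on the other strand, had a ratio of 10.2 beside 9.75 for Nipal3, and of 15.3 without input library 2. Gm42727 opposite Pds5a, a cohesin regulator gene, had 11.3 beside 9.59, and Gm42596 opposite Fbrsl1 had 10.7 beside 14.8, or 17.9 without input library 1. Without the strand rule of the counting, reads of these loci and of the facing exons cannot be told apart.

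Of the 12 members outside protein-coding genes, one was among the highest of all. Gm37352 (TEC, chr8:84200869-84203049, plus strand, 2181 nt) had 29.9, 24.4 and 22.2 RPKM in METTL3-RIP and 1.75, 2.58 and 1.87 RPKM in input. It had 1697 and 208 reads, the most of any single-block member, and its ratio of 12.4 was under the median of 20.2 for members of this position. Its difference was 3.11 on the log2(RPKM + 1) scale (SE 0.16, adjusted p = 2.85e-07 by limma). Gm37472 lies within Dleu2, a long noncoding RNA gene that carries a microRNA cluster, and had 9.19, 6.16 and 7.15 RPKM in METTL3-RIP and 0.421, 0.247 and 0.738 RPKM in input. Gm37728 lies within the noncoding gene Lncpint, at 2.47 RPKM in METTL3-RIP and 0.123 RPKM in input. Gm43197 lies within Gm20559, at 0.835 RPKM and 0.0331 RPKM, and 70.4% of its stretches of 31 bases occur elsewhere in the genome. Over the 202 annotated members the median of that share was 1.83%, and 4 members were above 25%. The remaining members of this position had METTL3-RIP means from 0.356 to 7.89 RPKM.

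The 5 processed pseudogenes had a median METTL3-RIP level of 5.91 RPKM on a median of 50 reads. Gm43213, at that median level, had 1790 nt and 326 reads, and 78.9% of its bases lie in exons of another gene on its strand. Gm43215 (252 nt, in Gsap) had 8.02, 15.3 and 17.1 RPKM in METTL3-RIP and 0.521, 0.496 and 1.89 RPKM in input, with an SE of 0.33 that was the largest among the members described here (adjusted p = 4.16e-05 by limma). Reads from the parent genes of such copies can map to them, and how the authors treated multiple matches is not stated.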

How the data were processed

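Strand-specific libraries of 3 METTL3-RIP and 3 input samples, grouped by their titles, were compared. Per the labels and methods, reads were mapped to GRCm38 with STAR 2.5.3a. The counter, annotation, strand rule and handling of multiple matches are not given in the sources used here. The authors deposited 1 table of 2652 features. Its per-library values are unlabelled and were inferred to be RPKM computed by the authors: with GENCODE M21 exon lengths, 201 of 206 members gave whole reads in all libraries within 0.02 reads, which also gave the library totals. The shortest length giving whole reads was used for the other 5. Further deposited columns with a log2 fold change and an unadjusted p-value hold the authors' comparison of METTL3-RIP with input and were not used. All per-library columns belonged to a sample.

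log2(RPKM + 1) was fitted with limma 3.58.1 (R 4.3.3, trend, 2-sided) over all features, with Benjamini-Hochberg adjustment and a threshold of 0.05, after the code was tested on simulated data. Alternatives were other pseudocounts, a filter, centring, quantile normalization, a replicate block, no trend, each library left out, voom on recovered reads and subsets of members. Positions and sequences came from GENCODE M21 and RefSeq GRCm38.p6, read with pysam 0.24.0. Counting intervals are not given, since most counts were even and mates are not independent. The members and lists were chosen with earlier results of these data known. Loci named were the highest by level, reads, difference and ratio, the lowest by difference and ratio, the longest and shortest, the highest outside class TEC, those sharing a host with others and the highest with a listed host. Other loci in the text fell outside these rules and were chosen after values were seen, some for their host gene or position. Results that need an item withheld here are not reported.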

Additional observations from a re-analysis of the deposited data

How the results depend on the processing

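The number of members past the threshold was 206 in the reported fit, and it was 73 of 73 with a mean of at least 1 RPKM, 30 after median centring (137 lower) and 17 after quantile normalization (1 lower). For all features the numbers were 2650, 1671 of 1671, 1044 (1119 lower) and 170 (152 lower). Both scalings set the libraries to a common centre over features that were all chosen for being higher in METTL3-RIP, which removes a shared shift by construction. The members' median difference of 1.15 became -0.61 after median centring and 0.025 after quantile normalization, where the median of all features became -0.04 and -0.11. It was 3.11 with a pseudocount of 0.1, 0.33 with a pseudocount of 5, 2.002 with a mean of at least 1 RPKM, 1.04 in class TEC alone, 1.04 in members without exon overlap, and 4.61 with voom on recovered reads, which uses log2 counts per megaread. Leaving out 1 library gave 205 to 206 members and 2629 to 2644 features past the threshold, and a median of 1.12 to 1.18. Gm43051 was the member lost wherever 1 was lost, also without the trend (adjusted p = 0.0541 by limma). Of 398 values of 29 named loci under alternatives, 359 kept direction and side of the threshold, 15 kept direction only and 24 turned. After median centring the turned differences were -1.37 for Gm36936, -0.55 for Gm37053, -1.46 for Gm37621, -0.41 for Gm37790, -1.39 for Gm38372, -0.17 for Gm42724, -1.44 for Gm43051, -0.38 for Gm43064, -0.22 for Gm43336, -1.38 for Gm43466 and -1.39 for Gm43571. After quantile normalization they were -0.059 for Gm36936, -0.31 for Gm36940, -0.31 for Gm37053, -0.15 for Gm37352, -0.10 for Gm37621, -0.13 for Gm38372, -0.0195 for Gm38394, -0.22 for Gm42724, -0.0859 for Gm43051, -0.29 for Gm43064, -0.26 for Gm43126, -0.18 for Gm43466 and -0.0696 for Gm43571.

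With the replicate block the members past the threshold numbered 206 and the features 2643. The reported fit did not pair libraries by number. Deviations of same-numbered METTL3-RIP and input libraries correlated at -0.02, -0.02 and 0.08 over all features, and at 0.13, -0.19 and -0.05 over members. With 3 libraries a group, these values cannot show that the libraries were unpaired. Depth limits the input side most, since 39 members had no input read and the median member had 6. As an alternative chosen after seeing the data, ratios were recomputed with each library left out: of the 71 with reads in all input libraries 19 moved by over 1.5 times, while their median of 16.2 ran from 14.98 to 17.2.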
